A study of Mus musculus with 9 samples.

Results

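The core genes of the integrated stress response were followed in B16 cells, a mouse melanoma cell line, across 9 RNA sequencing libraries. The 10 genes, of 22972 gene names in each library, were *Atf4*, *Atf5*, *Ddit3*, *Atf3*, *Nupr1*, *Trib3*, *Ppp1r15a*, *Sesn2*, *Ddit4* and *Chac1*. They were taken by symbol, each symbol was found on 1 row per library, and each of the 10 had a mean of 1 FPKM or more (fragments counted per gene, scaled for transcript length and for the size of the library). The members were chosen by symbol from a list drawn up when their FPKM values in the 9 libraries, and the spread between libraries, were already known. For this reason their levels and co-variation are given as a description and without a test. Cells of wild-type genotype were grown on flexible PDMS (silicone) film in DMEM with 10% serum and collected on day 3. The 3 groups of 3 libraries were untreated cells (CTL), cells strained cyclically for 72 h by stretching of the film (MS), and cells given blebbistatin, a myosin inhibitor, at 100 ng/mL for 72 h (Blebb). The labels of Blebb libraries name the inhibitor alone, while the study's text describes straining together with the inhibitor, and the sources used here do not settle this. The labels number the libraries of a group as parallel experiments and do not say how far these were separate cultures, so the p-values measure the spread between these libraries, which may be technical.

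The integrated stress response is a pathway that slows protein synthesis under stress. Kinases that sense amino acid shortage, misfolded protein in the endoplasmic reticulum, lack of heme or double-stranded RNA phosphorylate the initiation factor eIF2α. General translation then falls, while the mRNA of the transcription factor ATF4 is translated more. ATF4 and its partners switch on genes of amino acid supply and redox balance, and they also switch on CHOP (*Ddit3*), which is linked to cell death under lasting stress. GADD34 (*Ppp1r15a*) directs a phosphatase to eIF2α and closes the loop. The libraries measure mRNA only, and neither eIF2α phosphorylation nor ATF4 protein was part of them.

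The promoter sequences below are shown because they hold the letters that ATF4 and its bZIP partners are known to read. A window from 250 bases before to 50 bases after the RefSeq gene start was searched on both strands in 11 windows of the 10 genes (RefSeq, GRCm38.p6). The C/EBP-ATF response element was written as TGATGNAAN and the cAMP response element as TGACGTCA, and these letters do not overlap in any window printed. The first was found in 4 of the 10 genes (*Trib3*, *Atf3*, *Chac1* and *Nupr1*), each time on the strand opposite to the gene, against 3.954% of 32851 windows of all genes. The second was found in *Ppp1r15a*, against 1.79% of all windows. The other 5 genes held neither set of letters in the window, which says nothing of the factors that act on them. Capitals mark the match, and every stretch is read 5′ to 3′ on the strand of the gene. The *Trib3* stretch lies in an exon at chr2:152344029-152344057 (minus strand), 14 bases after the gene start. The *Atf3* stretch lies before the start at chr1:191183386-191183494 (minus strand), outside exons but within the span of a longer transcript, and that of *Chac1* at chr2:119350998-119351106 (plus strand). The *Nupr1* stretch lies at chr7:126625563-126625591 (minus strand) in an exon of another transcript of the gene, and that of *Ppp1r15a* ends at the gene start at chr7:45526269-45526329 (minus strand).
Trib3: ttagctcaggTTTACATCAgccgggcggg
Atf3: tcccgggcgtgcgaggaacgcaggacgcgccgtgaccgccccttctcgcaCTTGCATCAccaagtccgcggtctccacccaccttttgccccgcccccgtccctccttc
Chac1: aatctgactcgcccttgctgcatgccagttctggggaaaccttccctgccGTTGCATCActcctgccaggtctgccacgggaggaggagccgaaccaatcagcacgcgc
Nupr1: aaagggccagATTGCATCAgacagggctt
Ppp1r15a: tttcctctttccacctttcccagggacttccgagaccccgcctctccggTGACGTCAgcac

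The libraries as a whole differed in ways that the groups do not follow, and these values bear on every result given here. FPKM summed to between 439939 and 484093 per library, and between 9529 and 10388 genes reached 1 FPKM. Read depth is unknown, since the files hold no counts. On the first principal component of all genes tested, CTL 1 and Blebb 2 had scores of 42.1 and 43.9, MS 3 and Blebb 1 had 10.0 and 7.29, and the other libraries lay between -35.8 and -6.07. How far a library lay from the mean of each gene was related to GC content, with r across genes from -0.64 in MS 1 to 0.55 in Blebb 1. This r was 0.45 in CTL 1, -0.16 in MS 3 and 0.54 in Blebb 2. All 8 melanoma and pigment cell markers were expressed, with sums from 7640 to 13445 FPKM, and 4 of them (*Pmel*, *Tyr*, *Dct* and *Slc45a2*) had CTL 1, MS 3 and Blebb 2 as their highest libraries. The r of these 4 with the mean z-score of the 10 genes was 0.85 to 0.96 over the 9 libraries. It was 0.69 for *Sox10* and 0.63 for *Tyrp1*, but -0.67 for *Mlana* and -0.73 for *Mitf*, so the markers did not move as 1 set. The part of the markers in the results was not tested. The 6 fibroblast markers summed to at most 0.567 FPKM, the 6 keratinocyte markers to at most 0.0314 FPKM, and the 6 macrophage markers to between 2.10 and 4.32 FPKM. Of the macrophage markers, *Cd68* had a mean above 1 FPKM.

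*Atf4*, the transcription factor at the center of the response, had the highest level of the 10 genes. It was present at 337, 126 and 132 FPKM in CTL 1, 2 and 3, at 143, 129 and 280 FPKM in MS 1, 2 and 3, and at 174, 319 and 141 FPKM in Blebb 1, 2 and 3. CTL 1, Blebb 2 and MS 3 were the highest libraries, in that order, so each group held 1 high library and the 3 groups overlapped. The highest library was 2.68 times the lowest. *Atf5*, a related factor whose mRNA is also translated more when eIF2α is phosphorylated, was at 205, 40.1 and 35.8 FPKM in the CTL libraries, at 48.0, 34.2 and 141 FPKM in MS and at 67.8, 202 and 44.2 FPKM in Blebb. The same libraries were high, and the span was wider than for *Atf4*, at 5.99 times.

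*Ddit3* encodes CHOP, which pairs with other bZIP factors. Its mRNA was at 137, 24.7 and 18.5 FPKM in the CTL libraries, at 45.7, 25.8 and 99.1 FPKM in MS and at 23.6, 131 and 22.4 FPKM in Blebb. CTL 1 was 7.38 times CTL 3, a library of its own group. *Nupr1*, a small stress-induced chromatin protein, ran at 21.7, 3.29 and 4.24 FPKM in the CTL libraries, at 7.78, 3.59 and 22.0 FPKM in MS and at 5.52, 20.2 and 3.41 FPKM in Blebb. The 3 high libraries were again CTL 1, MS 3 and Blebb 2, and the lowest of these was 2.60 times the next library. *Atf3*, an immediate stress-response factor, was the gene with the lowest level and a different order. It was at 3.09, 1.70 and 3.01 FPKM in the CTL libraries, at 4.85, 3.06 and 3.64 FPKM in MS and at 2.84, 3.96 and 2.49 FPKM in Blebb. MS 1 was its highest library and CTL 2 its lowest, with CTL 1 below all 3 of MS 1, Blebb 2 and MS 3.

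*Trib3*, a pseudokinase that binds ATF4 and restrains it, spanned the widest range of the 10 genes. It was at 153, 21.2 and 19.4 FPKM in the CTL libraries, at 36.4, 22.0 and 103 FPKM in MS and at 41.7, 183 and 23.7 FPKM in Blebb. Blebb 2 was 9.44 times CTL 3, and MS 3 was still 2.47 times the library after it. *Ppp1r15a*, which restores eIF2α by dephosphorylation, was at 25.1, 6.40 and 6.80 FPKM in the CTL libraries, at 7.44, 6.59 and 17.1 FPKM in MS and at 8.18, 26.7 and 6.38 FPKM in Blebb. The 6 other libraries were close together, between 6.38 and 8.18 FPKM.

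*Sesn2* and *Ddit4* (REDD1) both restrain mTORC1, the kinase complex that drives growth. *Sesn2* was at 27.7, 13.0 and 12.7 FPKM in the CTL libraries, at 10.9, 11.8 and 21.3 FPKM in MS and at 17.9, 29.9 and 11.9 FPKM in Blebb. *Ddit4* was at 28.1, 16.2 and 15.9 FPKM in the CTL libraries, at 18.8, 17.1 and 24.2 FPKM in MS and at 16.6, 29.1 and 15.1 FPKM in Blebb. *Ddit4* had the narrowest range of the 10 genes, at 1.93 times. *Chac1*, an enzyme that degrades glutathione, was at 48.1, 13.5 and 10.3 FPKM in the CTL libraries, at 17.5, 12.9 and 36.8 FPKM in MS and at 19.7, 47.3 and 12.1 FPKM in Blebb. Its highest library was 4.66 times its lowest.

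**Figure D1:**
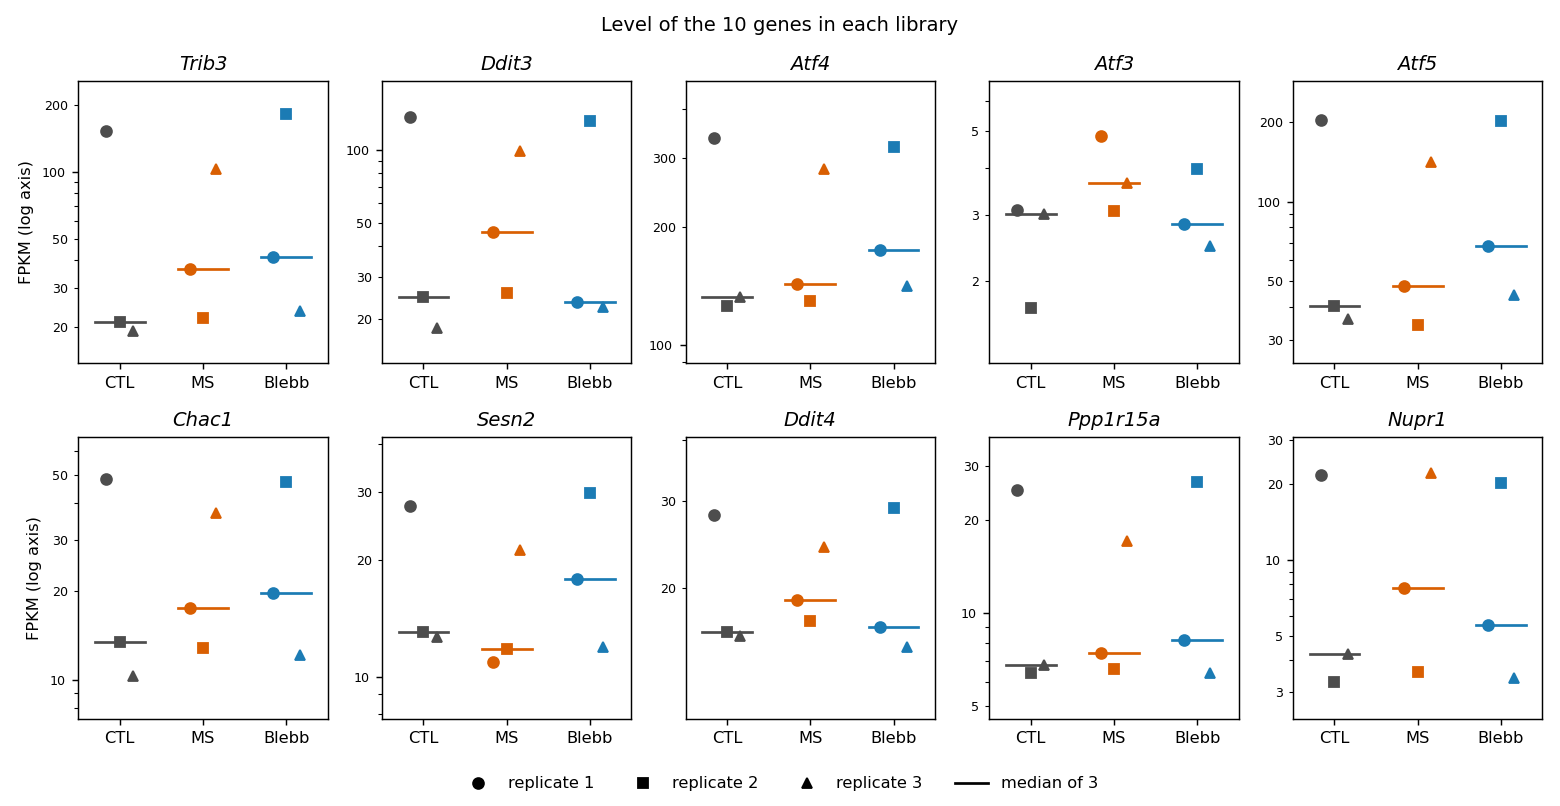
Level of each of the 10 genes in FPKM (log axis, scaled for each gene) in CTL, MS and Blebb. Each symbol is 1 library, its shape gives the replicate number and the line is the median of 3. In 9 genes CTL 1, MS 3 and Blebb 2 stand above the other 6 libraries, while *Atf3* is highest in MS 1.

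In 9 of the 10 genes the 3 highest libraries were CTL 1, MS 3 and Blebb 2, and *Atf3* was the exception. Of the 10109 genes tested, 15.8% (1599) had the same 3 libraries at the top and 16.1% (1629) had them at the bottom. The ratio of the highest to the lowest library had a median of 4.42 over the 10 genes and 1.73 over the 10099 genes above 0 in every library. Of those genes, 2.47% had a ratio as large as that of *Trib3*, 3.67% as large as that of *Ddit3*, and 39.6% as large as that of *Ddit4*. The share of the variation that lay between the 3 groups, on the log2(FPKM + 1) scale, was 36.3% for *Atf3*, 10.0% for *Sesn2* and between 0.173% and 3.75% for the other 8 genes. Its median was 12.7% over all genes tested. The GC content of the 10 genes ran from 45.6% (*Ddit3*) to 61.7% (*Atf5*), and both of these genes were high in the same 3 libraries.

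Some genes share exon bases with a neighbor on the other strand, and the strand setting of the authors' counting is not given in the sources used here. *Ddit3* (chromosome 10, 127290774 to 127296288, plus strand, GRCm38) shares 68 of 1713 exon bases with *Mars*, a methionyl-tRNA synthetase gene listed as *Mars1*. *Mars1* itself was at 46.7 to 59.9 FPKM, without the high values of *Ddit3* in CTL 1, MS 3 and Blebb 2. *Atf5* (chromosome 7, 44812256 to 44816658, minus strand) shares 82 of 1993 exon bases with *Nup62*, which was at 30.2 to 50.7 FPKM and lowest in MS 3. *Ppp1r15a* (chromosome 7, 45522916 to 45526268, minus strand) shares 12 of 2937 exon bases with *Tulp2*, which was at 0.800 to 2.49 FPKM and was highest in Blebb 2 and CTL 1, as *Ppp1r15a* was. *Il4i1*, which also shares 82 exon bases with *Atf5*, was at most 0.249 FPKM, in Blebb 2. GENCODE M21 gives the symbol *Ddit3* to 2 overlapping genes, and the files hold 1 value for it.

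**Figure D2:**
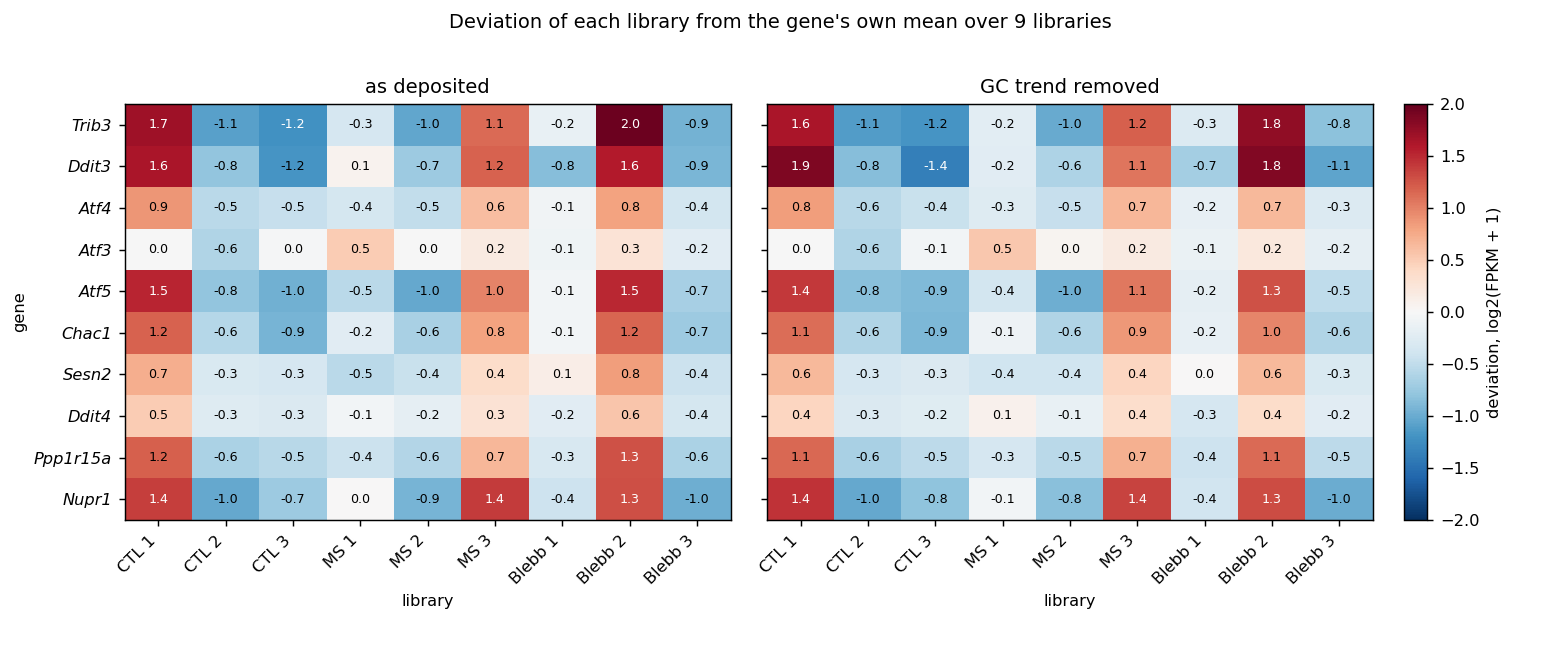
Deviation of each library from the gene's own mean over the 9 libraries, in log2(FPKM + 1), as deposited (left) and after removal of each library's GC trend (right). Red marks values above the mean and blue values below it. CTL 1, MS 3 and Blebb 2 are red in 9 genes in both panels, and *Ddit3* in MS 1 turns from 0.075 to -0.23 when the GC trend is removed.

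The genes moved together across the libraries. Pearson's r on log2(FPKM + 1) had a median of 0.96 over the 45 pairs of genes (0.23 to 0.99, 9 libraries), and 33 pairs had an r of at least 0.9. Spearman's rho had a median of 0.78. The genes share libraries, depth and the GC trend, and the points are not independent of how the list was drawn up, so no p is given. Taken as deviations from the group means the median r was 0.97, and after removal of each library's GC trend it was 0.96. *Atf3* was the gene apart, with r between 0.23 and 0.57 against the others.

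The relation rested in large part on the high libraries. Leaving out CTL 1 and Blebb 2, the 2 libraries farthest from the median of the mean z-score of the 10 genes, gave a median r of 0.90. Without MS 3 as well it was 0.60 over 6 libraries, with 3 pairs below 0 and 3 pairs at 0.9 or more. The pairs that stayed high in those 6 libraries were *Trib3* with *Chac1* (r = 0.95), *Atf4* with *Atf5* (r = 0.94) and *Trib3* with *Atf5* (r = 0.90). The r was 0.88 for *Ddit3* with *Ddit4*, 0.088 for *Ddit3* with *Atf4*, -0.41 for *Ddit3* with *Sesn2* and -0.25 for *Sesn2* with *Ddit4*. MS 1 and Blebb 1 held different genes high. Among the 6 libraries MS 1 was highest for *Ddit3*, *Nupr1*, *Ddit4* and *Atf3* and lowest for *Sesn2*, while Blebb 1 was highest for *Atf4*, *Atf5*, *Trib3*, *Chac1*, *Sesn2* and *Ppp1r15a*. MS 1 and Blebb 1 were also the ends of the GC trend of all libraries, although Blebb 2 lay close to Blebb 1 (r of 0.54 and 0.55). With that trend removed, the same pairs had an r of 0.65, 0.36, -0.14 and -0.67 over the 6 libraries. The gap between the first pair and the second narrowed, while *Sesn2* with *Ddit4* fell further below 0. The median over all pairs was 0.62, against 0.60 before, with 3 pairs below 0 in both. The part of the GC trend was not tested.

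MS was compared with CTL to ask whether cyclic straining changed the response. None of the 10 genes passed the test. The number of genes called at an adjusted p under 0.05 was 0 of 10 in limma (Benjamini-Hochberg adjustment across the 10109 genes), against a background of 0% of all genes. At an unadjusted p under 0.05 it was 0 of 10, against 0.158% of all genes (16 genes). With no difference at all, a fraction of the genes near 0.05 would be expected, which is more than 0.158%. The test thus passed fewer genes than its threshold allows, and 0 of 10 does not show that nothing changed. The 10 genes were also chosen with their spread between libraries known. Most of them had a high library in each group, which widens the spread that the test uses. The result of 0 of 10 may thus be set in part by that choice. The 3 MS libraries stood apart from the 3 CTL libraries, without overlap, in 0 of the 10 genes and in 3.17% of all genes. The log2 fold change was above 0 in 6 of the 10 genes, with a median of 0.060 against -0.0018 over all genes tested. The mean FPKM was higher in MS in 2 of the 10 genes (*Atf3* and *Nupr1*), against 48.5% of all genes tested. This count differs from that of the log2 fold changes, since the mean is weighted toward the highest library and the log2 scale less so. For *Trib3*, *Ddit3*, *Chac1* and *Ddit4* the mean was lower in MS while the log2 fold change was above 0.

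*Atf3* came closest to a difference. It was at 2.60 ± 0.780 FPKM in CTL and 3.85 ± 0.911 FPKM in MS (SD, n = 3), and FPKM + 1 differed by 0.44 ± 0.23 (SE) on the log2 scale (unadjusted p = 0.0895, adjusted p = 1.00, limma). *Atf4* was at 198 ± 120 FPKM in CTL and 184 ± 83.7 FPKM in MS (SD, n = 3), and its log2 fold change was -0.038 with a 95% confidence interval of -1.08 to 1.00. *Trib3* was at 64.6 ± 76.7 FPKM in CTL and 53.7 ± 43.1 FPKM in MS (SD, n = 3). Its SD exceeded the mean in CTL, and the interval of its log2 fold change, 0.12 and so opposite in direction to the means, ran from -2.06 to 2.29. *Ddit3* was at 60.0 ± 66.5 FPKM in CTL and 56.8 ± 37.9 FPKM in MS (SD, n = 3), with a log2 fold change of 0.28, again opposite to the means, and an interval of -1.72 to 2.29. *Ddit4*, the gene with the narrowest range, was at 20.1 ± 6.95 FPKM in CTL and 20.0 ± 3.73 FPKM in MS (SD, n = 3). Its interval of -0.62 to 0.68 around a log2 fold change of 0.031 leaves room for changes of that size in either direction. The other 5 genes had log2 fold changes between -0.23 (*Sesn2*) and 0.29 (*Nupr1*).

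The direction of these differences was set by single libraries. Leaving out CTL 1 moved *Trib3* to 1.07 and leaving out MS 3 moved it to -0.49. *Ddit3* was at 1.16 without CTL 1, and *Nupr1* at 1.04 without CTL 1 and -0.33 without MS 3. *Atf3* stayed above 0 with any 1 library left out, between 0.24 and 0.56. Without CTL 1, MS 3 and Blebb 2, the *Ddit3* difference was 0.66 at an unadjusted p of 0.0453 (adjusted p = 1.00, limma), and 0.633% of all genes had an unadjusted p under 0.05 in that fit. Those 3 libraries are the highest for *Ddit3* itself, and 6 libraries remained. They were left out with the *Ddit3* values known, so this p is a description and not evidence of a difference. With all libraries kept and the GC trend removed, the *Ddit3* difference was 0.18. In that fit *Atf3* was the 1 of 10 genes at an unadjusted p under 0.05, against 0.217% of all genes. Its log2 fold change was 0.48 (unadjusted p = 0.0434, adjusted p = 0.9999, limma). This was 1 of several alternative fits, and the unadjusted p was 0.0895 in the main fit (limma). It is likewise no evidence of a difference.

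Blebb was compared with MS to ask whether the response differed between cells given the myosin inhibitor and strained cells. Whether the Blebb cells were also strained is not settled, so the inhibitor and a lack of straining cannot be told apart here. The 10 genes again overlapped. The number called at an adjusted p under 0.05 was 0 of 10, against 0% of all genes, and at an unadjusted p it was 0 of 10 against 1.25% (126 genes) (limma). The share of 1.25% was again below the threshold, which is 0.05 as a fraction of the genes. The 3 Blebb libraries stood clear of the 3 MS libraries in 0 of the 10 genes and in 3.73% of all genes. The log2 fold change was above 0 in 6 of the 10 genes, with a median of 0.17 against -0.0059 over all genes tested. The mean FPKM was higher in Blebb in 8 of the 10 genes, against 49.4% of all genes tested. Since the 10 genes moved together across the libraries, these counts do not stand for 10 separate observations. The choice of the 10 genes with their spread known bears on this comparison as on that of MS with CTL. *Atf5* had the highest value, at 0.45 with a standard error of 0.80 (105 ± 85.1 FPKM in Blebb and 74.5 ± 58.2 FPKM in MS, SD, n = 3). *Sesn2* followed at 0.39 with a standard error of 0.40 (19.9 ± 9.15 FPKM in Blebb and 14.7 ± 5.78 FPKM in MS). *Atf3* was at -0.24 with a standard error of 0.23 (3.10 ± 0.771 FPKM in Blebb). The adjusted p-values of the 10 genes lay between 0.897 and 0.989 (limma). Both comparisons use the MS libraries, so a high value in MS lowers the second difference as it raises the first. Without Blebb 2, *Trib3* moved from 0.37 to -0.46, *Atf5* to -0.17 and *Nupr1* from -0.20 to -0.86.

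**Figure D3:**
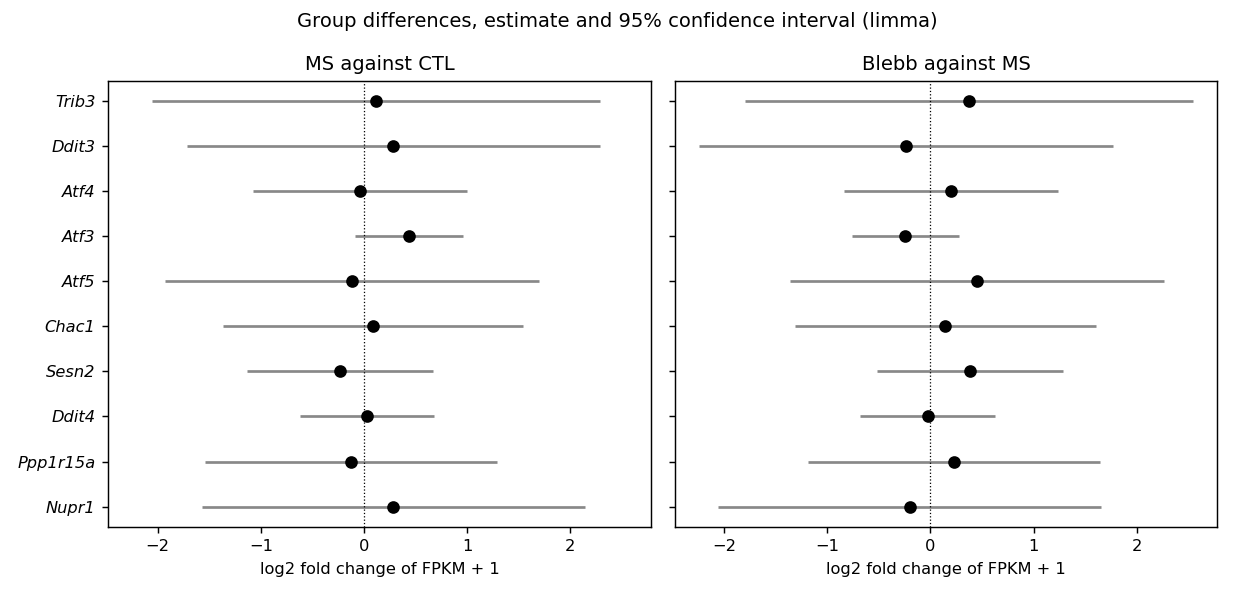
Log2 fold change of FPKM + 1 (point) with its 95% confidence interval (line, limma, 3 libraries a group) for MS against CTL (left) and Blebb against MS (right). Every interval includes 0, and those of *Trib3* and *Ddit3* are the widest while that of *Atf3* is the narrowest.

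In each group the order of the 10 genes by mean FPKM, which is scaled by length, began with *Atf4* and ended with *Atf3*. In CTL *Atf5* (93.6 ± 96.4 FPKM) came next, followed by *Trib3* and *Ddit3* (SD, n = 3). In all of these the SD was near or above the mean, with CTL 1 the high library in each. Within every CTL library *Atf5* was above *Trib3* and *Ddit3*. The order of *Trib3* and *Ddit3* differed between the libraries and was not resolved. *Chac1*, *Ddit4*, *Sesn2*, *Ppp1r15a* and *Nupr1* followed in CTL at 24.0 ± 21.0, 20.1 ± 6.95, 17.8 ± 8.55, 12.8 ± 10.7 and 9.75 ± 10.4 FPKM. The last 4 of these kept their order within every CTL library, although their SDs between libraries overlapped. *Chac1* was above *Ddit4* in CTL 1 only.

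The genes upstream of ATF4 are the kinases and the subunits of eIF2 and eIF2B. Among the 4 eIF2α kinases, 0 had CTL 1, MS 3 and Blebb 2 as the highest libraries. Such short lists cannot be told apart from the 15.8% of all genes with these libraries at the top. *Eif2ak3* (PERK, the kinase of the endoplasmic reticulum) was at 8.14 to 10.0 FPKM and *Eif2ak1* (HRI, the heme-sensing kinase) at 16.4 to 21.6 FPKM, with highest to lowest ratios of 1.23 and 1.31. *Eif2ak4* (GCN2, the sensor of amino acid shortage) was at 3.19 to 4.84 FPKM. *Eif2ak2* (PKR, the sensor of double-stranded RNA) varied more, from 0.225 FPKM in CTL 1 to 2.89 FPKM in MS 1. Of the 8 tested subunits of eIF2 and its exchange factor eIF2B, 0 had those 3 libraries at the top and 2 had them at the bottom. *Eif2s2*, the beta subunit of eIF2, was at 6.98 FPKM in CTL 1 and 6.77 FPKM in Blebb 2 and reached 54.3 FPKM in MS 1, and *Eif2s3x* was at 6.60 FPKM in Blebb 2 and 38.7 FPKM in MS 1. The eIF2B subunits *Eif2b5* and *Eif2b4* were even across libraries, at 64.9 to 76.9 and 21.5 to 26.8 FPKM.

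Of the 7 other genes of the phosphatase arm and related restraints, 0 had CTL 1, MS 3 and Blebb 2 at the top and 1 had them at the bottom, and at this list size counts of 0 and 1 lie near the shares of all genes. *Ppp1r15b*, the constitutive counterpart of *Ppp1r15a*, was at 27.3 to 36.7 FPKM in all libraries. The catalytic subunits *Ppp1ca* and *Ppp1cc* had ratios of 1.31 and 1.21. *Impact*, which restrains GCN2, and *Dnajc3*, which restrains PERK and PKR, were lowest in CTL 1 and in Blebb 2, respectively, at 0.543 and 4.13 FPKM, and both were highest in MS 1, at 5.74 and 14.8 FPKM. In the mitochondrial relay, *Lonp1*, a protease of the matrix, was the gene of 6 with the pattern of the 10 genes (151, 127 and 161 FPKM in CTL 1, MS 3 and Blebb 2 and 72.4 to 90.6 FPKM elsewhere). *Dele1*, which carries mitochondrial stress to HRI, was at 20.8 to 29.2 FPKM and *Clpp* at 70.7 to 101 FPKM. *Yme1l1* and *Hspd1* were highest in MS 1, at 14.1 and 239 FPKM.

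Among other known targets of ATF4, 25 of 30 genes were tested, 11 had CTL 1, MS 3 and Blebb 2 as the highest libraries and 1 had them as the lowest, against 15.8% and 16.1% of all genes. The order was not particular to this list, since 4 of the 8 melanoma markers had it as well. *Asns*, asparagine synthetase, was at 310, 137 and 138 FPKM in the CTL libraries, at 155, 128 and 244 FPKM in MS and at 216, 331 and 147 FPKM in Blebb. The 11 genes cover amino acid synthesis (*Asns*, *Psph*, *Cth*, *Gpt2*), amino acid transport (*Slc7a5*, *Slc3a2*, *Slc6a9*), a tRNA synthetase (*Sars*), mitochondrial metabolism (*Mthfd2*, *Pck2*) and protein disposal at the endoplasmic reticulum (*Herpud1*). *Slc6a9*, a glycine transporter, spanned 9.70 to 29.8 FPKM, a ratio of 3.08. *Slc7a11*, the cystine transporter subunit, had the widest ratio of the 25 tested genes at 7.46. It was lowest in Blebb 2 and CTL 1, at 1.60 and 1.69 FPKM, and highest in MS 1, at 11.9 FPKM. In MS 3 it was at 3.82 FPKM, within the range of the remaining libraries. *Phgdh* and *Ndrg1* varied least of the tested genes, with ratios of 1.48 in both. The secreted stress proteins *Gdf15* and *Fgf21* were below the minimum, at up to 1.04 and 0.0418 FPKM. In the promoter windows, 6 of 21 genes of this list with a window held TGATGNAAN (22.22% of 27 windows).

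**Figure D4:**
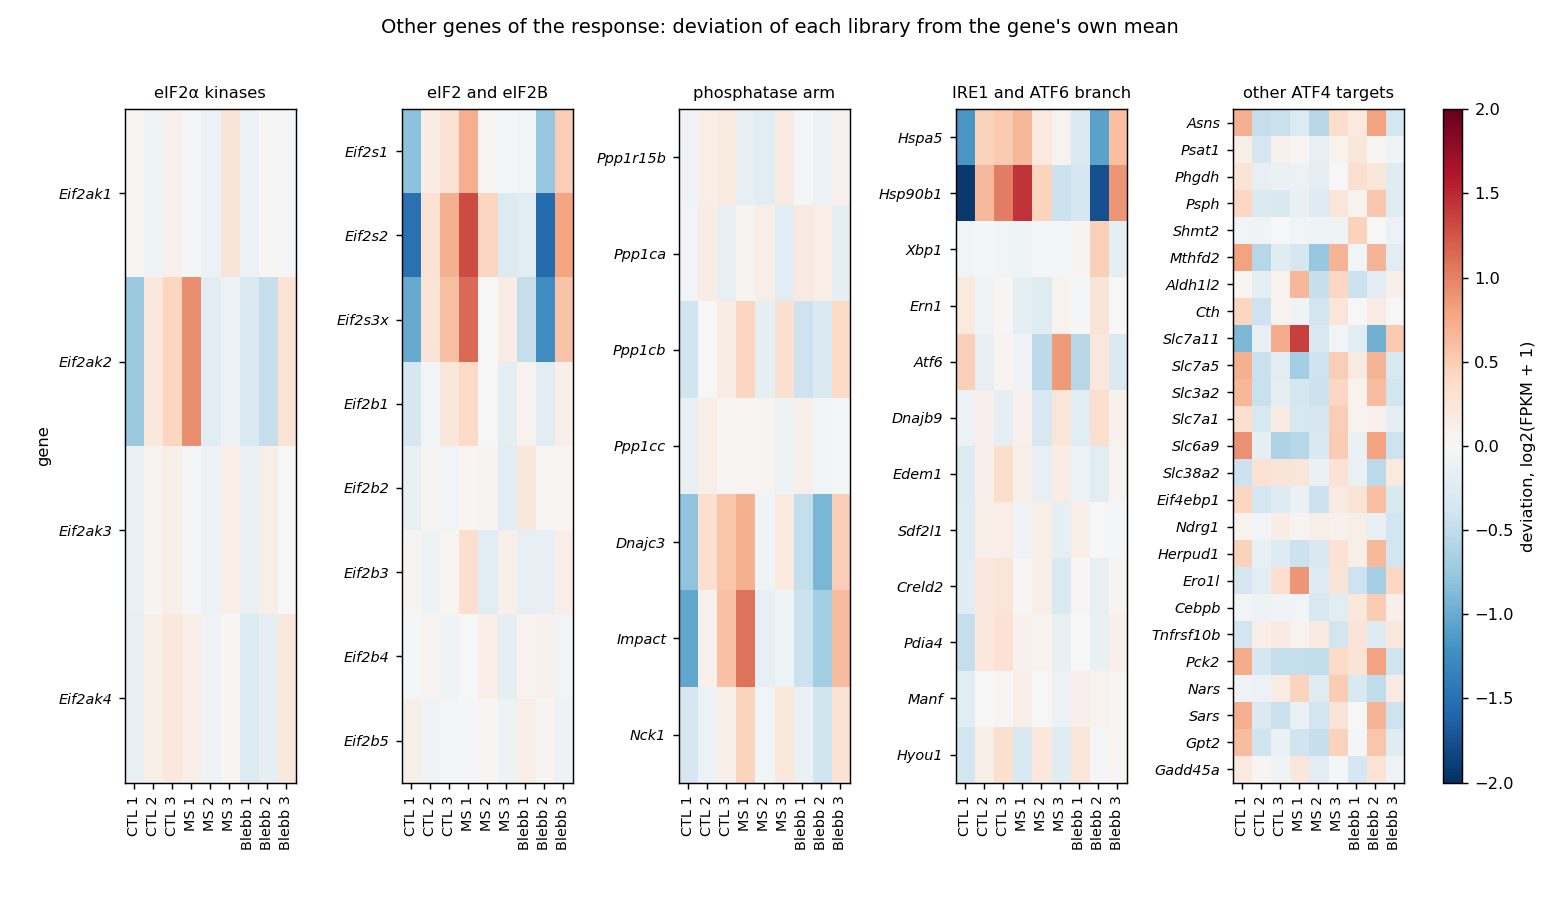
Deviation of each library from the gene's own mean, in log2(FPKM + 1), for the tested genes of 5 lists around the response. Rows are genes and columns are the 9 libraries, with red above and blue below the mean. Many ATF4 targets are red in CTL 1, MS 3 and Blebb 2, while *Eif2s2*, *Hspa5*, *Hsp90b1* and *Slc7a11* are blue in CTL 1 and Blebb 2.

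The IRE1 and ATF6 branch, the part of the unfolded protein response that does not run through eIF2α, had 12 tested genes, of which 2 had CTL 1, MS 3 and Blebb 2 at the top (*Ern1* and *Atf6*) and 3 had them at the bottom. These counts were near the shares of all genes, 15.8% and 16.1%. Its widest ranges belonged to the chaperones of the endoplasmic reticulum. *Hspa5* (BiP) was at 51.5, 161 and 168 FPKM in the CTL libraries, at 185, 134 and 122 FPKM in MS and at 95.7, 55.0 and 177 FPKM in Blebb. *Hsp90b1* (GRP94) fell to 11.5 FPKM in CTL 1 and 13.1 FPKM in Blebb 2 and reached 130 FPKM in MS 1. In CTL 1 and Blebb 2 *Ddit3* and *Trib3* were high and both chaperones were at their lowest, whereas in MS 3, where *Ddit3* was at 99.1 FPKM, *Hspa5* was at 122 FPKM and *Hsp90b1* at 34.4 FPKM. *Sdf2l1* and *Manf*, a cofactor of chaperones and a secreted stress protein, had ratios of 1.30 and 1.30. The GC content of *Hsp90b1* (42.1%), *Eif2s2* (38.7%) and *Slc7a11* (40.7%) was lower than that of any of the 10 genes, and the part of GC content in their values was not tested.

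Among the bZIP partners 10 of 12 genes were tested. Of these, 1 had CTL 1, MS 3 and Blebb 2 at the top and 2 had them at the bottom, against 15.8% and 16.1% of all genes. The gene at the top was *Jdp2*, a relative of *Atf3*, with an r of 0.84 with the mean z-score of the 10 genes. *Jund* had an r of 0.89 and missed the order because Blebb 1 (78.7 FPKM) was above MS 3 (77.5 FPKM). *Batf3* and *Maff* were lowest in CTL 1, MS 3 and Blebb 2. They were at 1.29 and 1.25 FPKM in CTL 1 and up to 3.69 and 4.12 FPKM elsewhere. *Junb* was even (12.7 to 15.6 FPKM). No gene of the lists passed an adjusted p of 0.05 in either comparison (limma, 0 in each direction). At an unadjusted p under 0.05 the count was 0 of 76 genes of these lists in MS against CTL and 1 of 76 in Blebb against MS, near the 0.158% and 1.25% of all genes. That gene was *Cebpb*, a partner of ATF4 and CHOP, which differed by 0.47 ± 0.14 (SE) on the log2 scale (unadjusted p = 0.00893, adjusted p = 0.897, limma). It was singled out after its value was seen. For the other ATF4 targets the median log2 difference was -0.083 between MS and CTL, with 8 of 25 genes above 0, and 0.18 in Blebb against MS, with 18 of 25 above 0. Of all 10109 genes tested, 5008 and 4956 were above 0 in these comparisons.

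Among the paralogs of the 10 genes, 1 of 8 tested (*Jdp2*, at 15.7 FPKM in MS 1 to 30.8 FPKM in CTL 1) had CTL 1, MS 3 and Blebb 2 at the top, against 15.8% of all genes. *Trib1* was at 1.63 to 2.86 FPKM against 19.4 to 183 FPKM for *Trib3*. *Sesn1* was at 3.00 to 5.81 FPKM and *Sesn3* at 2.18 to 7.59 FPKM, and both were highest in MS 3 and lowest in Blebb 1. *Chac2*, which like *Chac1* degrades glutathione, was lowest in CTL 1, Blebb 2 and MS 3, at 1.89, 1.99 and 2.61 FPKM, and reached 5.46 FPKM in MS 1. *Atf2* was at 1.99 to 5.26 FPKM and *Cebpg* at 2.01 to 3.91 FPKM. *Trib2*, *Ddit4l* and *Nupr1l* had means under 1 FPKM and were not tested.

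Likeness to the 10 genes was measured as Pearson's r with the mean of their z-scores over the 9 libraries, among 6902 other genes at a mean of 5 FPKM or more. An r of 0.9 or more was found for 480 genes and an r of -0.9 or less for 281. The 8 most alike were *Gstm2*, *Tmem234*, *Ly6g5c* (r = 0.99 each), *Irf9*, *Inpp5k*, *Rit1*, *H1f0* and *Ccndbp1* (r = 0.98 each). *Gstm2*, a glutathione transferase, was at 201, 113 and 121 FPKM in the CTL libraries, at 135, 116 and 174 FPKM in MS and at 134, 203 and 107 FPKM in Blebb. *Irf9*, a transcription factor of interferon signaling, was at 8.93, 3.68 and 3.31 FPKM in the CTL libraries, at 4.57, 3.52 and 8.11 FPKM in MS and at 4.03, 11.7 and 3.22 FPKM in Blebb. The 4 genes with the most opposite course were *Tspan3*, *Espl1*, *Dzip1l* and *AC159819.1* (r = -0.98 each). *Espl1*, the protease separase that parts sister chromatids, was at 5.22, 6.56 and 5.38 FPKM in CTL 1, MS 3 and Blebb 2 and between 10.3 and 13.3 FPKM in the others.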

How the data were processed

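RNA of 9 B16 libraries (CTL, MS and Blebb, 3 each) was extracted with TRIzol, prepared with a SMARTER mRNA kit and sequenced on an Illumina platform. The authors deposited FPKM per gene, already scaled by gene length and mapped fragments. The builds in the submitters' processing notes are GRCm38 and mm10. The aligner, counter, annotation and strand setting are not given in the sources used here. The column of CTL 1 is headed by the sample's name rather than by a unit and was taken as FPKM. Depth is unknown, so no counting intervals are given.

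Values were used as log2(FPKM + 1), a scale that understates changes of low genes. All 10109 genes at a mean of 1 FPKM or more were tested in limma 3.58.1 (R 4.3.3) in 1 fit of 3 groups, with a mean-variance trend, two-sided tests and Benjamini-Hochberg adjustment at 0.05. The fit was tested on simulated data. No member fell below the minimum, so the exact permutation test planned for that case was not needed. The members and gene lists were chosen with earlier results of these data known. Named genes are the 10 members, their paralogs, up to 4 genes per list with the widest and narrowest ranges over libraries, and the 8 most and 4 least alike. Others given as examples were chosen after their values were seen. GC content was available for 95.6% of genes tested (GENCODE M21), and gene positions come from the same annotation. The alternatives were another pseudocount, other minimums, median-of-ratios and quantile scaling, no trend, only the groups compared, a replicate block, GC trend removal (loess, span 0.5), and libraries left out. Leaving out CTL 1, MS 3 and Blebb 2 in the correlations was added after seeing the data. In the group comparisons the same 3 libraries were left out with the member values known. Plots used matplotlib 3.10.9.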

Additional observations from a re-analysis of the deposited data

How the results depend on the processing

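With 3 libraries a group and 1 high library in each, small changes of the wide-ranging members were not detectable (95% interval of *Trib3* in MS against CTL, -2.06 to 2.29 on the log2 scale), and depth could not be judged from FPKM. The number of genes called was 0 in both comparisons under every alternative but no minimum, where it was 3 in Blebb against MS (*Derl3*, *Gm9918* and *Gm7978*, listed at 0 in the other 6 libraries and under 0.02 FPKM in Blebb), and without MS 2, where it was 1 in each comparison (*Gm49527*, at 0 and 0.192 FPKM in the remaining MS libraries). With 1 library left out it thus ran from 0 to 1 in both. No member was called under any alternative. At an unadjusted p under 0.05, 1 member passed in MS against CTL with the GC trend removed (*Atf3*, 0.48) and 1 without CTL 1, MS 3 and Blebb 2 (*Ddit3*, 0.66), against 0.217% and 0.633% of all genes in those fits. The first fit is 1 of several alternatives, and the unadjusted p of *Atf3* was 0.0895 in the main fit (limma). The second fit leaves out the 3 highest libraries of *Ddit3* itself, so its p is a description only. The median correlation between members was 0.60 without those 3 libraries. The cause of these shifts was not tested.

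Of 198 log2 fold changes of members under alternatives that keep all libraries or drop those 3, 192 kept their direction and 6 turned, all in MS against CTL. Other minimums, no trend, only the groups compared and the replicate block leave a log2 fold change as it is in this balanced design. Their values were fixed in advance, so the count of 192 overstates how stable the directions were. *Atf4* was at 0.0028 with quantile normalization, 0.043 with the GC trend removed and 0.075 without the 3 libraries. *Atf5* was at 0.0051 with the GC trend removed and 0.096 without the 3 libraries, and *Ppp1r15a* at 0.075 without them. With 1 library left out, the log2 fold change in MS against CTL ran from -0.49 to 1.07 for *Trib3*, -0.25 to 1.16 for *Ddit3*, -0.38 to 0.42 for *Atf4*, -0.71 to 0.69 for *Atf5*, -0.32 to 0.74 for *Chac1*, -0.52 to 0.12 for *Sesn2*, -0.11 to 0.29 for *Ddit4*, -0.52 to 0.47 for *Ppp1r15a* and -0.33 to 1.04 for *Nupr1*. In Blebb against MS it ran from -0.46 to 0.99 for *Trib3*, -1.06 to 0.26 for *Ddit3*, -0.14 to 0.54 for *Atf4*, -0.17 to 1.05 for *Atf5*, -0.37 to 0.57 for *Chac1*, -0.31 to 0.14 for *Ddit4*, -0.35 to 0.62 for *Ppp1r15a* and -0.86 to 0.42 for *Nupr1*. *Atf3* in both comparisons and *Sesn2* in Blebb against MS kept their sign.

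Whether the replicate numbers pair the libraries was not settled. Deviations of same-numbered libraries had r across genes from -0.78 to 0.84 over 9 pairs, and differently numbered libraries were not compared. With a replicate block the number of genes called was 0 in both comparisons.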
